A study of Mus musculus with 8 samples.

Results

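Of the 54532 genes in the count table, 10 encode the interferon-γ inducible GTPases described here. The choice was made by gene symbol, with earlier results of these data known. They comprise the guanylate-binding proteins Gbp2, Gbp3, Gbp4, Gbp5 and Gbp7 and the immunity-related GTPases Irgm1, Irgm2, Igtp, Iigp1 and Ifi47. All 10 were found, and all 10 passed the low-count filter that left 17138 genes for testing. RNA was sequenced from whole lungs of CC-LR mice, which carry the LSL-K-rasG12D allele and Cre recombinase at the club cell secretory protein (CCSP) locus on a C57BL/6 background, so that mutant K-ras is switched on in lung epithelium and tumors arise in the lung. The 4 control and 4 TTI-101-treated mice all had this genotype and were 14 weeks old, and TTI-101, an inhibitor of the transcription factor STAT3, was given for 4 weeks. Both sexes were used in the study, the sex of each mouse was not given, and neither the route nor the dose of TTI-101 was given for the sequenced mice. There was 1 library per mouse, and p-values measure the spread between mice.

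The 10 genes lie on 4 chromosomes of GRCm38. Gbp5 (ENSMUSG00000105504, chr3:142493978-142522344), Gbp7 (ENSMUSG00000040253, chr3:142530342-142550149), Gbp3 (ENSMUSG00000028268, chr3:142560026-142573209) and Gbp2 (ENSMUSG00000028270, chr3:142620602-142638008) form a cluster on the plus strand. Gbp4 (ENSMUSG00000079363, chr5:105115767-105139586) is on the minus strand. Irgm1 (ENSMUSG00000046879, chr11:48861968-48871683) is also on the minus strand, whereas Ifi47 (ENSMUSG00000078920, chr11:49076587-49096974), Igtp (ENSMUSG00000078853, chr11:58199556-58207591) and Irgm2 (ENSMUSG00000069874, chr11:58199618-58222782) are on the plus strand. Iigp1 (ENSMUSG00000054072) lies on chromosome 18.

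Interferon-γ, made mainly by T cells and NK cells, binds a receptor that signals through JAK kinases and induces the transcription factor IRF1. The promoters of its targets hold GAS and ISRE elements, and IRF1 binds the ISRE. Guanylate-binding proteins and immunity-related GTPases are among the most strongly induced targets in macrophages, epithelium and endothelium, where they gather on vacuoles that hold intracellular pathogens and break them open. The Irgm1, Irgm2 and Igtp proteins regulate the family by keeping the effector GTPases, such as those of Iigp1 and Ifi47, inactive on the cell's own membranes.

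The RefSeq promoter windows of GRCm38.p6 were searched on both strands for the letters of GAS and ISRE. GAS was taken as TTCNNNGAA and ISRE as GAAANNGAAA, which reads TTTCNNTTTC on the other strand. Each window holds 250 bases before and 50 bases after a start site, and 8 of the 10 genes had one. Gbp4 and Iigp1 are not in the table. The ISRE letters stood in 7 of these 8 genes, all but Ifi47, against 3.99% of 27025 genes with a window. The GAS letters stood in 4 genes, Gbp5, Gbp7, Irgm2 and Igtp, against 9.55% of genes, and these 4 genes held both motifs, as 0.614% of genes did. In the part before the start site alone, the GTPases with each motif were as many, while 8.13% of genes held GAS and 3.46% ISRE. A match describes letters and is not a measured binding site. The windows below run 5′ to 3′ on the strand of the gene with the matches in capitals. Igtp and Irgm2 are shown because their GAS and ISRE lie 2 bases apart. Tgtp2, a family gene outside the 10, has the same arrangement. Gbp7 and Gbp2 are shown as guanylate-binding protein genes with and without GAS. Ifi47 is shown because the window searched for it holds neither motif.
Igtp: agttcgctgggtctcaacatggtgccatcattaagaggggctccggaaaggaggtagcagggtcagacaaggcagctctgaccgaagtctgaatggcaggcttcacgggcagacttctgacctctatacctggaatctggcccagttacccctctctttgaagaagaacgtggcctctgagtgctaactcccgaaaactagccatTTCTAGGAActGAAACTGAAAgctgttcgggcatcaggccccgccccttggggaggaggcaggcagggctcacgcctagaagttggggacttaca
Irgm2: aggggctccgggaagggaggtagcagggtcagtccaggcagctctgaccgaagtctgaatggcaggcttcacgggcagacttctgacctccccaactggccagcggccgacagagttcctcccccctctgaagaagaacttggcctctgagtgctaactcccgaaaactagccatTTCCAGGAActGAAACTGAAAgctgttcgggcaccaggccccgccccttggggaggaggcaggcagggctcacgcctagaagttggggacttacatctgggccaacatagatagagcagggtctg
Tgtp2: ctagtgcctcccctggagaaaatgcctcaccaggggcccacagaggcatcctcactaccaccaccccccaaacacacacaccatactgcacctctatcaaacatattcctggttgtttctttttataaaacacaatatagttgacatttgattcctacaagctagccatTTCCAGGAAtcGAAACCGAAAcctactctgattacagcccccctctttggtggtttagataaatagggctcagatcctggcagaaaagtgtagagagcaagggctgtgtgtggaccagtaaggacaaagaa
Gbp7: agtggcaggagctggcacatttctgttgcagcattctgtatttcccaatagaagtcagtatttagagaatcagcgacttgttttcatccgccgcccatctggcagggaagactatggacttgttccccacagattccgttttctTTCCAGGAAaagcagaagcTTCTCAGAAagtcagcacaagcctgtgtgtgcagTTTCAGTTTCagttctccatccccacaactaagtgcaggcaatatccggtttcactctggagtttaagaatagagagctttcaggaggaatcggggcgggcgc
Gbp2: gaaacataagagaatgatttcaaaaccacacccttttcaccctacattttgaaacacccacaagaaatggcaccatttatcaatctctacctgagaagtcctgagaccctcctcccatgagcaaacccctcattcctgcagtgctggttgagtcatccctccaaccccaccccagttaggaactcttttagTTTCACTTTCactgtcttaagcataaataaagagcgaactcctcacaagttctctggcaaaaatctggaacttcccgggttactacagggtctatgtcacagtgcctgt
Ifi47: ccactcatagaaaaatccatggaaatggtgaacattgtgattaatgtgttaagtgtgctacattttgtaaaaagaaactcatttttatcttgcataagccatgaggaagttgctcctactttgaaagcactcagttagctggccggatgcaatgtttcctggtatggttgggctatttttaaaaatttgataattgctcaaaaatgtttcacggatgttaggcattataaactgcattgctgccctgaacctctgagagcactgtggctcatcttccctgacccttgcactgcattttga
These windows are chr11:58199306-58199605 on the plus strand for Igtp, chr11:58214727-58215026 on the plus strand for Irgm2, chr11:49064163-49064462 on the minus strand for Tgtp2, chr3:142530086-142530385 on the plus strand for Gbp7, chr3:142620413-142620712 on the plus strand for Gbp2 and chr11:49076337-49076636 on the plus strand for Ifi47. Gbp7 has a pair of GAS matches before its ISRE, which is 25 bases from the nearer one. In Gbp5 the nearest GAS and ISRE are 71 bases apart.

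Libraries held between 16446481 and 26873509 counts in control and between 16075855 and 25920509 in TTI-101-treated mice, and the 2 deepest were control mouse 1 and treated mouse 1. Control mouse 4 stood apart on the first principal component, which held 45.2% of the variance, at 101 against -39.3 to 17.9 in the others, and mitochondrial genes took 5.56% of its counts against 2.01% to 2.85%. The lung label was matched by surfactant and other alveolar type 2 genes, whose 8 markers summed to 32690 to 74200 CPM in each mouse. Stat3, which encodes the drug's target, had a log2 fold change of -0.08 ± 0.15 (SE, adjusted p = 0.886 by edgeR's quasi-likelihood test). With edgeR's test and Benjamini-Hochberg adjustment, 0 genes (0%) of all tested passed an adjusted p of 0.05, 6.61% passed an unadjusted p of 0.05 and DESeq2 called 4 genes at an adjusted p of 0.05.

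Every one of the 10 GTPases had a log2 fold change above 0 in TTI-101-treated against control lungs, as 50.6% of all genes tested did, and none passed the test. The genes moved together from mouse to mouse, so their shared direction is not 10 separate observations. The median log2 fold change was 0.42 over the 10 genes and 0.00 over all genes tested. By edgeR's quasi-likelihood test, adjusted p-values lay between 0.657 and 0.825, and 0 of 10 genes passed an unadjusted p of 0.05. DESeq2 passed 1 gene at that level, Gbp4, and limma-voom passed 0. For each of the 10 genes the control and treated values overlapped, whereas the groups did not overlap for 2.96% of all genes tested. An exact permutation test over the 70 ways to divide the mice, two-sided and able to reach 0.0286 at the lowest, gave p between 0.171 and 0.543 per gene. The median shrank to 0.23 without control mouse 4 and to 0.25 without treated mouse 1, and grew to 0.63 without control mouse 1.

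**Figure D1:**
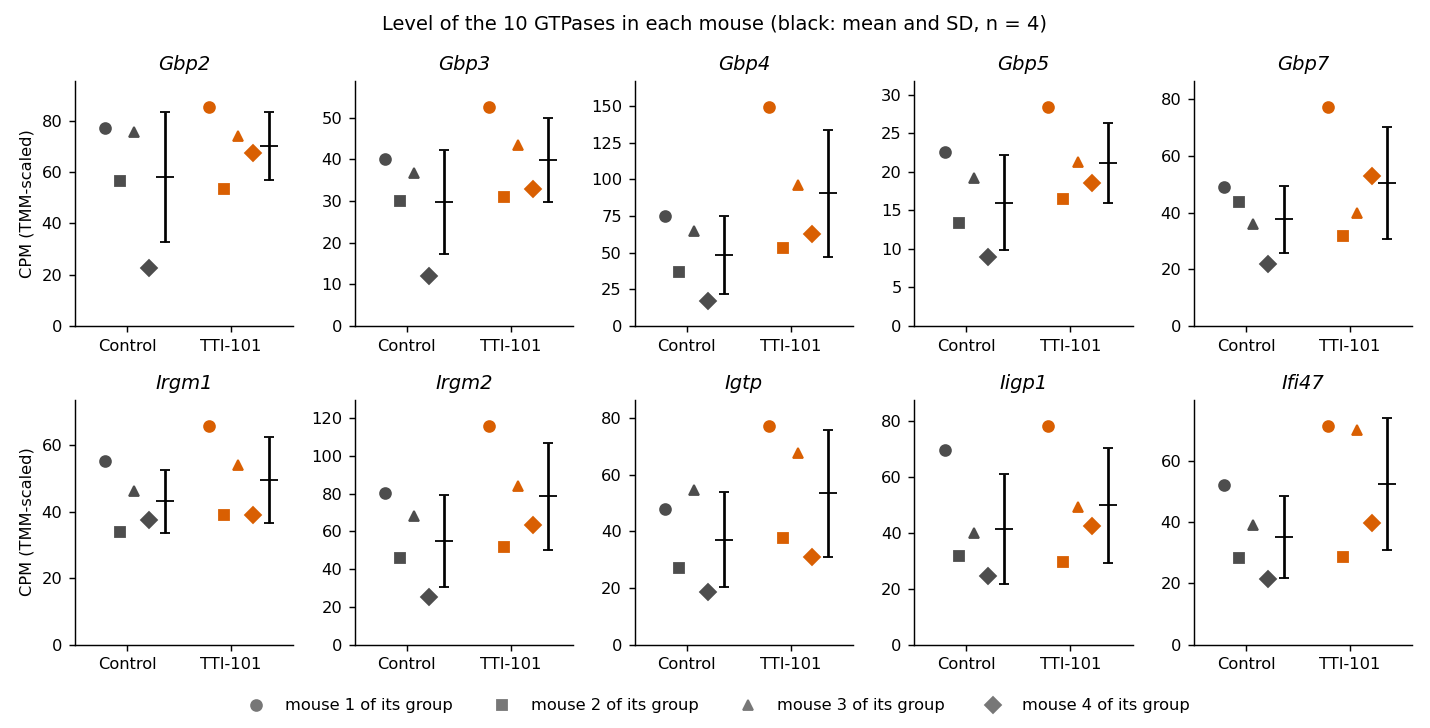
TMM-scaled level (CPM) of the 10 GTPases in each mouse, 1 panel per gene, with control mice in grey and TTI-101-treated mice in orange and the mean and SD of 4 mice in black. Treated mouse 1 is the highest point in all 10 panels, and control mouse 4 is the lowest in 9, the exception being Irgm1.

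Among the guanylate-binding proteins, Gbp4, of the chromosome 5 cluster, had the largest difference. Its level in CPM, counts scaled by library total and TMM factor, was 75.1, 37.1, 64.7 and 16.9 in control mice 1 to 4 and 149, 53.4, 96.2 and 62.6 in treated mice 1 to 4. Treated mice 1 and 3 lay above every control mouse, while treated mice 2 and 4 lay within the control range. The means were 48.4 ± 26.5 CPM and 90.3 ± 43.3 CPM (SD, n = 4 each), a 1.86-fold difference with a log2 fold change of 0.90 ± 0.44 (SE) and an unadjusted p of 0.0693 by edgeR's quasi-likelihood test. DESeq2's Wald test gave an unadjusted p of 0.0302 and an adjusted p of 0.881 for Gbp4. Its span overlaps those of Gbp9 and Gbp8 on the same strand, so that reads could not be assigned between them with certainty where exons coincide.

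Gbp2, whose protein gathers on parasite vacuoles, was at 77.1, 56.6, 75.7 and 22.6 CPM in the control mice and at 85.3, 53.4, 74.0 and 67.6 CPM in the treated mice. Apart from control mouse 4, the groups covered nearly one range, and the log2 fold change of 0.27 ± 0.32 (SE) became 0.02 without that mouse. Gbp3 stood at 40.2, 29.9, 36.8 and 12.0 CPM in control and at 52.5, 30.9, 43.6 and 32.8 CPM in treated lungs, which on the log2 scale is a difference of 0.43 ± 0.33 (SE). Gbp5, which takes part in inflammasome responses, was the lowest of the 10 genes in reads per length. Its values were 22.6, 13.3, 19.2 and 8.89 CPM in control and 28.4, 16.5, 21.3 and 18.6 CPM in treated mice, with a log2 fold change of 0.40 ± 0.29 (SE). Gbp7 had 49.0, 43.8, 35.8 and 21.9 CPM in control against 77.2, 31.9, 39.7 and 53.0 CPM in treated lungs, which on the log2 scale is a difference of 0.42 ± 0.30 (SE). Treated mouse 4 held the second place for Gbp7 and for none of the other 9 genes. Without treated mouse 1 the log2 difference was 0.27 for Gbp3, 0.23 for Gbp5, 0.14 for Gbp7 and 0.54 for Gbp4, and without control mouse 4 it was 0.18, 0.21 and 0.25 for the first 3.

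The 3 regulatory immunity-related GTPases had both small and larger differences. Irgm1, which protects the cell's own membranes and without which mice lose lymphocytes on infection, was at 55.1, 34.0, 46.3 and 37.4 CPM in control and at 65.9, 39.0, 54.1 and 39.0 CPM in treated lungs. Its log2 fold change of 0.20 ± 0.22 (SE) was the smallest of the 10 with all mice, and was 0.029 without treated mouse 1 and 0.34 without control mouse 1. Irgm1 also had the smallest coefficient of variation over the 8 mice, 23.9%, against 57.7% for Gbp4 at the other end. Irgm2, a regulator found mainly at the Golgi, was at 80.0, 45.6, 68.0 and 25.2 CPM in control and at 116, 51.5, 83.8 and 63.1 CPM in treated mice, with a log2 fold change of 0.52 ± 0.35 (SE). Igtp, the regulator also called Irgm3, was at 47.9, 27.2, 54.8 and 18.7 CPM in control and at 77.4, 37.6, 67.7 and 31.1 CPM in treated mice, with the same rounded log2 fold change of 0.52 ± 0.37 (SE). Without treated mouse 1 these became 0.27 for Irgm2 and 0.29 for Igtp, and without control mouse 4 they became 0.29 and 0.31. For both genes, treated mice 1 and 3 lay above every control mouse and the other two lay within the control range. The annotated spans of Irgm2 and Igtp overlap on one strand, and 5.16% of the 100-base stretches of Igtp and 3.01% of those of Irgm2 recur in the other gene.

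Of the effector immunity-related GTPases, Ifi47, also called Irgd, had the second largest difference of the 10 genes. Its level was 51.9, 28.3, 38.9 and 21.5 CPM in control and 71.4, 28.5, 69.9 and 39.5 CPM in treated mice. Treated mice 1 and 3 were nearly level and exceeded every control mouse, whereas treated mouse 2 was nearly level with control mouse 2. On the log2 scale the difference was 0.57 ± 0.34 (SE), with an unadjusted p of 0.119 by edgeR's quasi-likelihood test. The span of Ifi47 overlaps that of Olfr56 on the same strand, which had 353 counts summed over all mice. Iigp1, also called Irga6, whose protein loads early onto parasite vacuoles, was at 69.4, 31.6, 39.7 and 24.6 CPM in control and at 78.2, 29.6, 49.1 and 42.3 CPM in treated lungs. Control mouse 1 lay above 3 of the 4 treated mice, and the log2 fold change of 0.27 ± 0.35 (SE) turned to -0.036 without treated mouse 1.

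Per kilobase of the gene length given with the counts, Gbp2 was the most abundant of the 10 in control lungs at 23.1 ± 10.1 CPM per kb (SD, n = 4). Igtp followed at 18.4 ± 8.39, Irgm2 at 14.8 ± 6.59, Ifi47 at 14.2 ± 5.37 and Iigp1 at 13.2 ± 6.31 CPM per kb. A lower tier held Gbp3 at 9.11 ± 3.84, Irgm1 at 7.43 ± 1.64, Gbp7 at 6.70 ± 2.10 and Gbp4 at 6.46 ± 3.53 CPM per kb, with Gbp5 last at 2.41 ± 0.920 CPM per kb. Neighbours in this order were compared over the 8 mice on the log2 scale by a two-sided exact sign-flip permutation test, with p-values adjusted over the 9 pairs. Iigp1 exceeded Gbp3 in 8 of 8 mice and Gbp4 exceeded Gbp5 in 8 of 8 mice (adjusted p = 0.0352 for each by this exact test, from 0.00781, the smallest it can give), and Ifi47 exceeded Iigp1 in 7 of 8 mice (adjusted p = 0.0469, exact test). The other 6 pairs of neighbours did not differ beyond their spread, with adjusted p from 0.0703 to 0.734 in the exact test. The order was set by the control means of mice that the test also used. This test does not measure error in the gene lengths, which are the same for every mouse. For Iigp1 the length given was 3121 bases, whereas 5936 stretches of 100 bases were compared for shared sequence. Its place in the order thus depends on the length used. In treated lungs Gbp4, at 12.1 ± 5.77 CPM per kb, stood close to Gbp3, at 12.2 ± 3.09.

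The 10 GTPases moved together from mouse to mouse within both groups. Treated mouse 1 had the highest level of 8 mice in 10 of 10 GTPases, as in 10.2% of all genes tested, and control mouse 4 had the lowest in 9 of 10, as in 28.7% of all genes. Both held for 9 of the GTPases and for 4.08% of all genes. The second place went to treated mouse 3 in 5 genes, to control mouse 1 in 4 and to treated mouse 4 in 1. The mean log2 CPM of the 10 GTPases was 5.75, 5.03, 5.49 and 4.30 in control mice 1 to 4 and 6.21, 5.14, 5.80 and 5.40 in treated mice 1 to 4, which gives 5.14 ± 0.63 and 5.64 ± 0.47 (SD, n = 4 each). Control mouse 1 thus lay above 2 of the treated mice, and treated mouse 2 lay below 2 of the control mice. Treated mouse 1 and control mouse 1, both high, were also the deepest libraries, and the part of depth in these levels was not tested.

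**Figure D2:**
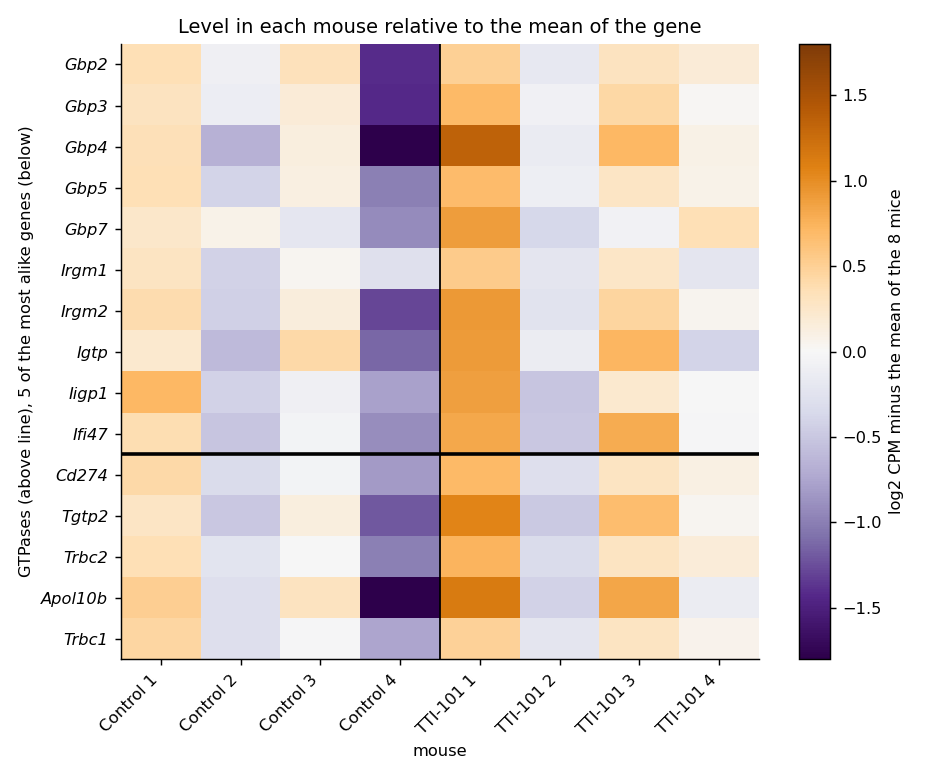
Log2 CPM in each mouse minus the mean of the gene over 8 mice, for the 10 GTPases above the black line and 5 of the 6 genes most like them below it, with control mice left of the vertical line and TTI-101-treated mice right of it. Orange marks a level above the mean of the gene and purple one below it, and treated mouse 1 and control mouse 4 are the extremes in nearly every line.

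Each GTPase was correlated over the 8 mice with the mean standardized log2 CPM of the other 9. Pearson's r had a median of 0.93, from 0.81 for Gbp7 to 0.997 for Irgm2, and a median of 0.92 after the mean of each group was subtracted. Over the other genes tested the median r with the mean of all 10 GTPases was 0.03. These values describe 8 mice that differ in library depth and in the summed markers of cell types. The part of either in r was not tested. Treated mouse 1 and control mouse 4 were the farthest from the middle. Among the 6 genes with the highest r were Cd274 (r = 0.99), the gene of the checkpoint ligand PD-L1, Tgtp2 (r = 0.98), Trbc2 (r = 0.98) and Trbc1 (r = 0.98), the constant regions of the T cell receptor β chain, and Apol10b (r = 0.98). Without treated mouse 1 and control mouse 4, r was 0.96, 0.96, 0.93, 0.96 and 0.94 in that order. Spearman's rho was 0.95, 1.00, 0.93, 0.95 and 0.98. Tgtp2 ranked the mice exactly as the mean of the GTPases did, and 76.8% of its 100-base stretches recur in Tgtp1, so that its reads could be shared with that gene.

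The other GTPases of these families were taken from a list of 20 genes, of which 19 had a row and 15 passed the filter. Of these, 12 had a log2 fold change above 0 and 3 below, with a median of 0.47, where 50.6% of all genes tested were above 0. At an adjusted p of 0.05, 0 passed. At an unadjusted p of 0.05, 1 passed, near the 6.61% of all genes tested that did. Among guanylate-binding proteins Gbp6 was at 10.3, 3.77, 5.10 and 2.30 CPM in control and at 18.0, 3.90, 11.1 and 6.39 CPM in treated mice, which is an order of mice close to that of the 10 GTPases, with a log2 fold change of 0.87 ± 0.52 (SE) that was 0.40 without treated mouse 1 and 1.40 without control mouse 1. Gbp9 had a log2 fold change of 0.55 and Gbp8 one of 0.47. Among the immunity-related GTPases, the log2 fold change was 0.65 for Tgtp2 (0.36 without treated mouse 1), 0.04 for Tgtp1, 0.83 for Gm12250, 0.13 for Gm4951, 0.29 for 9930111J21Rik2, -0.17 for 9930111J21Rik1 and -0.42 for Gm5431. Irgc1, a relative best known from testis, was barely detected at 0.192 to 1.45 CPM and had a log2 fold change of 0.83 (1.53 without control mouse 1), and Irgq, a relative that is not known as interferon inducible, had -0.06. The very large GTPase genes Gvin1, Gm4070 and Gm8995 had log2 fold changes of 0.71, 0.70 and 0.47. Gm4070 passed an unadjusted p of 0.05 in the fit across all genes (adjusted p = 0.657 by edgeR's quasi-likelihood test), though not without control mouse 4, and 95.6% of its 100-base stretches recur in other genes, as do 97.8% of those of Gvin1 and 64.5% of those of Gbp6. For the 10 GTPases this share lay between 0% and 10.0%, the highest being Gbp7, most of whose repeated stretches belong to a pseudogene with 0 counts.

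**Figure D3:**
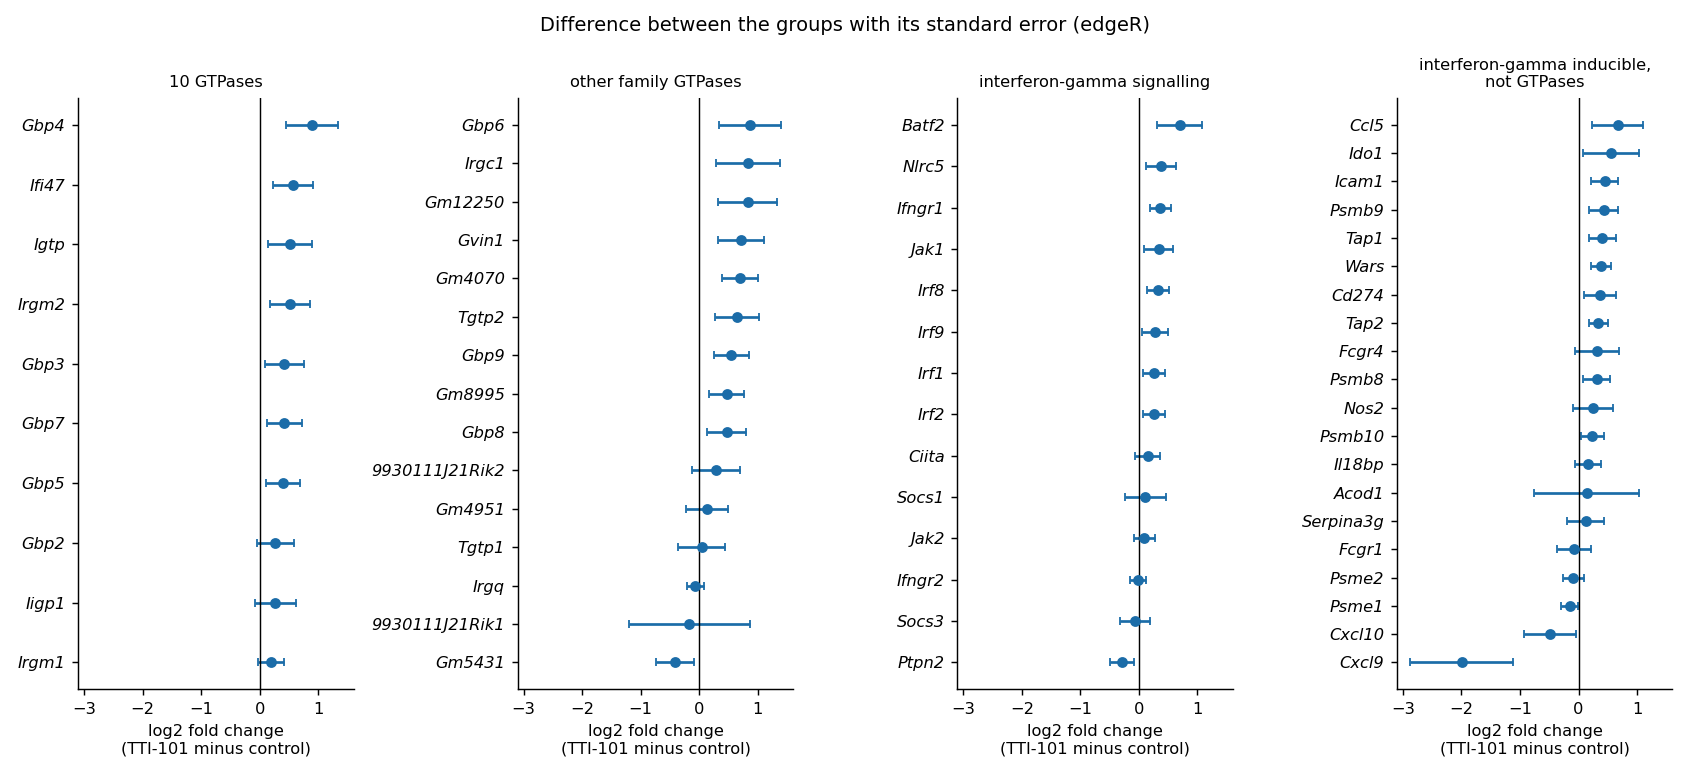
Log2 fold change of TTI-101-treated against control lungs from edgeR, with its standard error as a bar, for the 10 GTPases, the other GTPases of their families, 14 interferon-γ signalling genes and the other interferon-γ inducible genes. The 10 GTPases lie between 0.20 and 0.90, while Cxcl9 lies at -2.00 in the last panel.

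Upstream of the GTPases, the transcript of interferon-γ was close to undetectable in these libraries, which do not measure the protein. Ifng had 18, 6, 2 and 4 counts in control and 13, 6, 4 and 12 counts in treated mice and did not pass the filter. Of 16 interferon-γ signalling genes 15 were tested, 12 had a log2 fold change above 0 and 3 below, with a median of 0.26, and 0 passed either threshold. Among all genes tested, 50.6% were above 0 and 6.61% passed an unadjusted p of 0.05. The receptor chains differed by 0.37 ± 0.18 (SE) for Ifngr1 and -0.01 ± 0.14 (SE) for Ifngr2 on the log2 scale, and the kinases by 0.34 ± 0.24 (SE) for Jak1 and 0.09 ± 0.18 (SE) for Jak2. The log2 fold change was 0.26 ± 0.19 (SE) for Irf1, 0.33 ± 0.19 (SE) for Irf8 and 0.70 ± 0.39 (SE) for Batf2, the last a factor that works with IRF1. The regulators of antigen presentation Nlrc5 and Ciita had 0.38 and 0.15, and the feedback inhibitor Socs1 had 0.11. Over the 8 mice, r with the GTPases was 0.91 for Ifngr1, 0.90 for Batf2, 0.88 for Irf1, 0.83 for Nlrc5 and 0.78 for Irf8. It was 0.61 for Jak1, 0.43 for Ciita, 0.42 for Ifngr2, 0.25 for Jak2 and 0.03 for Socs1. For the inhibitors Socs3 (r = -0.65) and Ptpn2 (r = -0.67) it was negative. Without control mouse 4, the log2 fold change of Batf2 was 0.42.

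Interferon-γ inducible genes that are not GTPases numbered 22, of which 20 were tested. Of these, 15 had a log2 fold change above 0 and 5 below, with a median of 0.28, 0 passed an adjusted p of 0.05 and 1, Cxcl9, passed an unadjusted p of 0.05. That 1 of 20 is near the 6.61% of all genes tested that passed, and 50.6% of all genes were above 0. Genes of antigen processing had log2 fold changes of 0.31 ± 0.23 (SE) for Psmb8, 0.43 ± 0.24 (SE) for Psmb9 and 0.41 ± 0.23 (SE) for Tap1. Cd274 had 0.37 ± 0.28 (SE) and the T cell chemokine Ccl5 had 0.67 ± 0.43 (SE). Without 1 mouse, Cd274 lay between 0.18 (treated mouse 1 left out) and 0.61 (control mouse 1), Ccl5 was at 0.37 without control mouse 4, and Psmb9 was at 0.24 and Tap1 at 0.26 without treated mouse 3 and control mouse 4 respectively. In contrast, the CXCR3 ligand Cxcl9 was at 10.5, 0.837, 0.555 and 1.79 CPM in control and at 1.21, 1.26, 0.723 and 0.243 CPM in treated mice. Its log2 fold change of -2.00 ± 0.89 (SE, unadjusted p = 0.0470, adjusted p = 0.657 by edgeR's quasi-likelihood test) rested on control mouse 1 and was -0.28 without it. The related ligand Cxcl10 had -0.48, and -0.05 without control mouse 1.

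Genes of the machinery with which the GTPases work had differences centred near 0. Of 17 partners and effectors, all tested, 10 had a log2 fold change above 0 and 7 below, the median was 0.03, and 0 passed either threshold. For this list and the next, 50.6% of all genes tested were above 0 and 6.61% passed an unadjusted p of 0.05. The autophagy conjugation factors that load the GTPases onto vacuoles included Atg3, Atg5, Atg7, Atg12 and Atg16l1, with log2 fold changes of -0.05, -0.11, 0.02, -0.02 and -0.07. The largest differences were those of Il1b, an inflammasome product, at 1.03 ± 0.65 (SE), and of Aim2, a DNA sensor, at 0.48 ± 0.23 (SE). Il1b was at 0.45 without treated mouse 4. The other genes of inflammasome responses in this list were mostly above 0. Their log2 fold changes were 0.40 for Casp1, 0.34 for Nlrp3, 0.32 for Gsdmd, 0.14 for Il18, 0.03 for Casp4 and -0.13 for Pycard. The next list held 20 genes known for induction by type I interferon, all tested. Of these, 14 had a log2 fold change above 0 and 6 below, with a median of 0.13. Oas3 at 0.63 and Ifit2 at 0.53 led this list, and Usp18 alone passed an unadjusted p of 0.05, in the other direction, at -0.39 ± 0.18 (SE, adjusted p = 0.657 by edgeR's quasi-likelihood test). The call of Usp18 was lost without control mouse 3, and neither DESeq2 nor limma-voom made it. Without control mouse 4, Oas3 was at 0.33 and Ifit2 at 0.27, and without control mouse 1 they were at 1.04 and 0.96. Median r with the GTPases over the 8 mice was 0.78 for the other family members, 0.77 for the signalling genes, 0.71 for the other inducible genes, 0.66 for the type I list and 0.36 for the partners.

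Markers of lymphocytes moved with the GTPases from mouse to mouse. The summed level of 12 T cell markers was 146, 72.7, 80.5 and 38.2 CPM in control mice 1 to 4 and 171, 82.5, 159.8 and 126 CPM in treated mice 1 to 4, and that of 10 NK and cytotoxic cell markers was 96.0, 65.3, 69.3 and 16.3 CPM and 151, 53.8, 120.0 and 122 CPM. Both sums were highest in treated mouse 1 and lowest in control mouse 4, as were the GTPases, whose own sum was 568, 347, 479.8 and 209.7 CPM in control and 801, 372, 599 and 449.6 CPM in treated mice. The median r of single markers with the mean of the GTPases over the 8 mice was 0.90 for T cells, 0.88 for NK and cytotoxic cells and 0.83 for B cells. The 10 B cell markers summed to 538, 281, 289 and 152 CPM in control and to 878, 944, 920.3 and 709.5 CPM in treated mice, a different pattern, since treated mouse 2 was the highest of all for B cells and only the sixth of 8 for the GTPases. All 10 B cell markers passed an unadjusted p of 0.05 on the higher side, where 6.61% of all genes passed in either direction, with a median log2 fold change of 1.25. The T cell markers had 12 of 12 log2 fold changes above 0 (1 passing an unadjusted p of 0.05, median 0.73) and the NK and cytotoxic markers 10 of 10 (1 passing, median 0.74), both counts near that share of all genes. By edgeR's quasi-likelihood test, 0 genes of these 3 lists passed an adjusted p of 0.05. In whole lung, more cells of a type and more RNA per cell cannot be told apart, and the part of these markers in the GTPase levels was not tested.

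**Figure D4:**
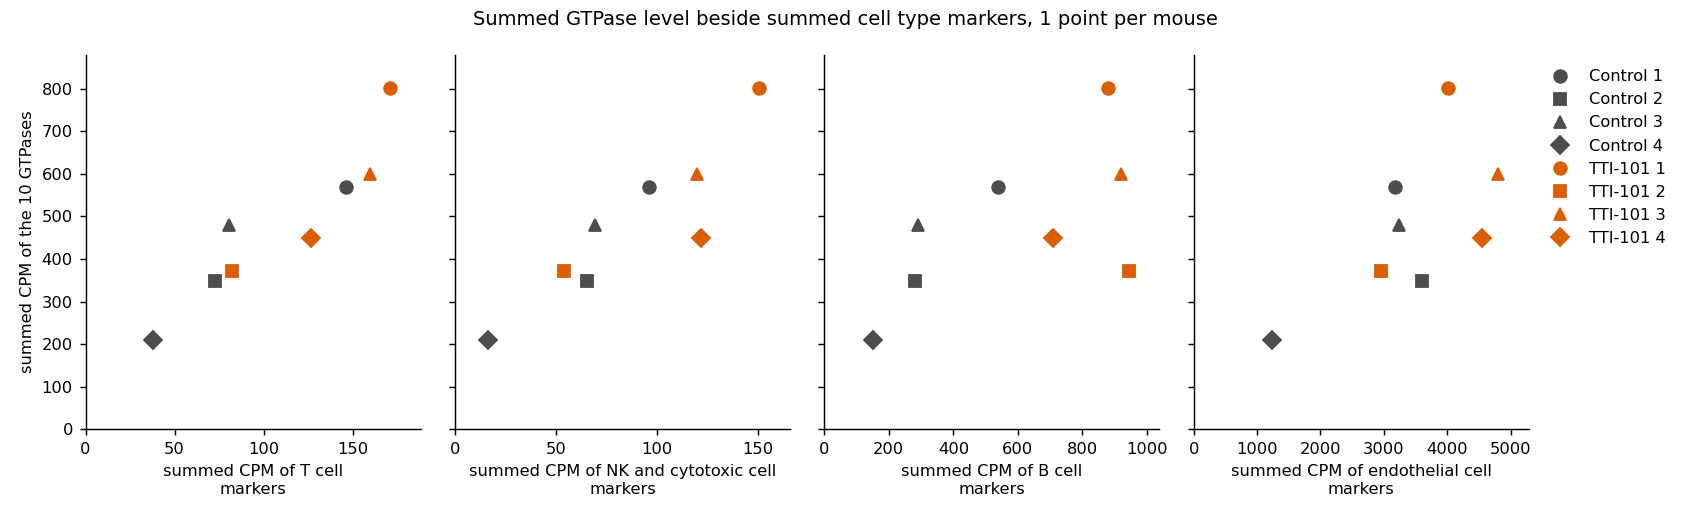
Summed CPM of the 10 GTPases on the vertical axis against summed CPM of the markers of T cells, NK and cytotoxic cells, B cells and endothelial cells, 1 point per mouse, control in grey and TTI-101-treated in orange. T cell and NK sums rank treated mouse 1 first and control mouse 4 last as the GTPases do, while treated mouse 2 has the highest B cell sum, 944 CPM, at a GTPase sum of 372 CPM.

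Other marker lists are given by median log2 fold change and median r with the GTPases. The values were 0.50 and 0.71 for 10 endothelial cell markers, 0.84 and 0.83 for 6 tested neutrophil markers, 0.63 and 0.70 for 7 fibroblast markers, 0.41 and 0.78 for 7 alveolar type 1 markers and 0.29 and 0.60 for 9 alveolar macrophage markers. Alveolar type 2 and airway lists lay on the other side, at -0.40 and -0.51 for 8 alveolar type 2 markers, -0.70 and -0.70 for 6 club cell markers and -0.65 and -0.81 for 8 ciliated cell markers. Control mouse 4 had the lowest sum in each of the former lists and the highest in each of the latter. Its endothelial markers summed to 1237 CPM against 2949 to 4805 CPM in the other mice. Its fibroblast markers summed to 1486.5 CPM against 2754 to 5448 CPM. The medians are not given without that mouse. Dendritic cells, with 9 markers, had 0.01 and -0.02, and monocytes and interstitial macrophages, with 10, had -0.09 and 0.08. The dendritic cell markers went both ways, with log2 fold changes from -0.80 to 1.21. The 5 tested red cell markers had the largest median, 2.50, with r of 0.45. By edgeR's quasi-likelihood test 6.61% of all genes passed an unadjusted p of 0.05 in either direction. On the higher side 4 red cell markers passed, and 1 each of the neutrophil, alveolar macrophage and dendritic cell markers. On the lower side 3 ciliated cell, 2 club cell and 2 dendritic cell markers passed. At an adjusted p of 0.05, 0 did. None of the markers was at 0 in every mouse, and their part in the levels of the GTPases was not tested either.

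Within the chromosome 3 cluster, Gbp2b (ENSMUSG00000040264, chr3:142594847-142619179), formerly called Gbp1, lies between Gbp3 and Gbp2 and behaved unlike its neighbours. It had 843, 7, 5 and 0 counts in control mice 1 to 4 and 1038, 7, 543 and 5 counts in treated mice 1 to 4. Control mouse 1 and treated mice 1 and 3 thus had at least 543 counts and the other 5 had between 0 and 7, so that Gbp2b did not pass the filter for edgeR's fit. DESeq2's Wald test, run without that filter, gave an adjusted p of 0.980 for Gbp2b, and the two-sided exact permutation test gave p = 0.314. In CPM the values were 30.9, 0.418, 0.277 and 0 in control and 39.1, 0.420, 30.2 and 0.304 in treated lungs. Over the same mice Gbp2, the next gene on the chromosome, had between 353 and 2264 counts and Gbp3 between 188 and 1394. None of the 100-base stretches of Gbp2b recurs in another gene, and its promoter window holds the ISRE letters. The 3 mice with counts are those with the 3 highest means of the GTPases, and that relation was not tested. Other family genes below the filter were Gbp10 with 0 to 41 counts, Gbp11 with 3 to 23, and F830016B08Rik with 0, 7, 12 and 50 counts in control and 0, 8, 2 and 8 counts in treated mice, whose highest value was in the mouse without Gbp2b counts.

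**Figure D5:**
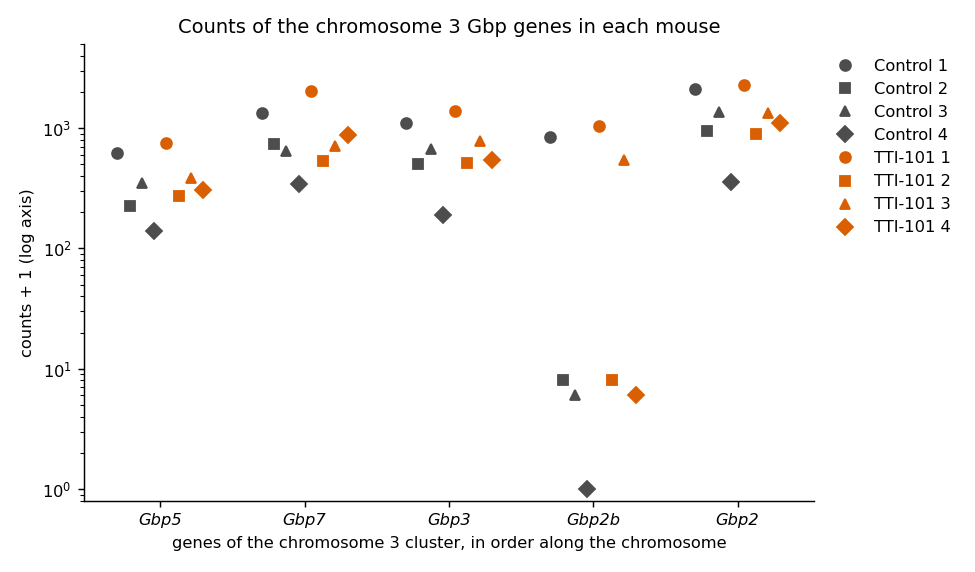
Counts plus 1 on a log axis for the guanylate-binding protein genes of chromosome 3 in the order of the chromosome, 1 point per mouse, control in grey and TTI-101-treated in orange. Gbp2b has 843, 1038 and 543 counts in control mouse 1 and treated mice 1 and 3 and at most 7 in the other 5, a split that its neighbours do not have.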

How the data were processed

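Whole-lung RNA from 4 control and 4 TTI-101-treated mice was sequenced with poly(A) selection, a stranded mRNA kit and paired ends. The sequencing provider processed the reads, and the authors deposited a table of raw whole-number counts, 1 row per Ensembl gene. The submitters' processing notes name STAR, DESeq2 and mm10; their versions, the counting tool and its strand setting are not given in the sources used here. The files' coordinates match GENCODE M21 for 9 of the 10 GTPases.

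Counts were fitted in R 4.3.3 with edgeR 4.0.16 (filterByExpr with minimum count 10, TMM, robust quasi-likelihood F-test without covariates, Benjamini-Hochberg adjustment over 17138 genes). CPM is the count scaled by library total and TMM factor, and log2 CPM used a prior count of 2. Alternatives were DESeq2 1.42.0, limma 3.58.1 (voom), other scalings and filters, a replicate block, Xist as a covariate and leaving out each mouse. The fit was tested on simulated data with changes larger than those of the GTPases. That test cannot tell whether differences of their size would be found. Likeness is Pearson's r with the mean standardized log2 CPM of the 10 GTPases. Totals of 16075855 to 26873509 counts limit precision for genes near 1 CPM.

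The GTPases, the 5 related gene lists and the 14 marker lists were chosen with earlier results of these data known. Named genes were the 10 GTPases, Stat3, every tested gene of the other family GTPases, preselected signalling and inducible genes, the 2 tested genes of each pathway list with the largest absolute log2 fold change, and the 6 genes most alike. Cxcl9 apart, genes named for an unadjusted p (Gm4070, Usp18) were chosen after their values were seen. So were those named as examples (the autophagy factors, the other inflammasome genes, Gbp2b and the other genes under the filter). One gene that these rules name is not reported here.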

Additional observations from a re-analysis of the deposited data

Results flagged for a closer look

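Gbp2b, which was left out of edgeR's fit because it was below the low-count filter, had 2424 counts summed over control mouse 1 and treated mice 1 and 3. In 3 sets of values there was 1 mouse far from the other 3 of its group, judged by the gap to the nearest value as a share of the range against the critical value of Dixon's test at 95%. The family gene 9930111J21Rik1 was highest in treated mouse 4, with a share of 0.867. Jak1 was highest in control mouse 1, with a share of 0.896, and Irf8 was highest in treated mouse 3, with a share of 0.853. Over 84 groups examined, chance flags about 1 in 20, or 4.2, and 3 were found. None of the 10 GTPases was among them.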

How the results depend on the processing

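The median log2 fold change of the 10 GTPases was between 0.23 and 0.63 with each mouse left out, and it kept its direction under every alternative run. The number of GTPases with an unadjusted p under 0.05, 0 by edgeR's quasi-likelihood test with all mice, ranged from 0 to 2 with each mouse left out (Gbp4 and Ifi47, without control mouse 1 and also without treated mouse 2) and was 1 by DESeq2 (Gbp4). The cause was not tested. Without treated mouse 1 the log2 fold change of Iigp1 was -0.036 (up to 0.64 without control mouse 1), and the other 9 GTPases stayed above 0 in each of these fits. The number of genes with an adjusted p under 0.05, 0 in edgeR, was 4 by DESeq2, 1 with Xist as a covariate and 0 to 1 with each mouse left out. With the replicate number as a block, 4 GTPases passed an unadjusted p of 0.05 (Gbp4, Irgm2, Igtp and Ifi47) and 0 genes passed an adjusted p of 0.05. The share of all genes passing an unadjusted p of 0.05 is not given for this fit, for DESeq2 or with a mouse left out. The counts of GTPases passing in those fits thus cannot be set against such a share. Whether equal numbers mark pairs is not stated by the labels and cannot be told from these values. Deviations of same-numbered mice correlated at 0.39, 0.08, 0.16 and 0.07, all above 0. Those of mice with unlike numbers correlated at -0.42 to 0.17, and not every mouse correlated best with its own number. The mice numbered 1 had the deepest library of each group. The mean r of the 6 most alike genes was 0.98, against 0.96 by Spearman's rho and 0.98 with group means subtracted. Counts as low as those of Ifng limit any statement on that gene.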
